A study of Mus musculus with 14 samples.

Results

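The regions described here are the HDAC3 peaks of mouse quadriceps that were listed late in the dark phase and overlapped no peak listed late in the light phase. They are the peaks of the wild-type list at ZT22 that share not even 1 bp with any peak of the wild-type list at ZT10, where ZT, zeitgeber time, is the number of hours since the lights came on. By this rule 749 of 1459 ZT22 peaks were ZT22-only (51.3%, Wilson 95% interval 48.8% to 53.9%), and the other 710 overlapped a ZT10 peak. The interval covers counting error only and treats peaks as independent draws. The ZT10 list is longer, with 4093 peaks, of which 3383 (82.7%) overlapped no ZT22 peak. Both lists together hold 5552 peaks.

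The mice were wild type for HDAC3, male, 4 months old and of strain C57B/6, on normal chow and a normal light/dark schedule, with no specific treatment. HDAC3 was precipitated from quadriceps in 1 library at each time, so there is no replicate, no test and no p-value for any difference between the times. The series' design text says that HDAC3 binding was mapped at different times of day and set against muscle depleted of HDAC3. Of the 14 samples, 2 were used here.

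HDAC3 is a histone deacetylase that works as the catalytic subunit of the NCoR and SMRT corepressor complexes. It does not bind DNA itself and is brought to chromatin by transcription factors, among them the REV-ERB nuclear receptors, whose own levels cycle through the day. In liver, HDAC3 occupancy is known to follow REV-ERB and to be high by day and low by night.

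The members were chosen by being listed at ZT22 and not at ZT10, and a listing depends on the score the authors gave each peak. Scores are for that reason given as a description. Every peak is 150 bp long, so peaks overlap when their centres lie less than 150 bp apart. Just inside the rule, the 5 closest members lay 153, 155, 155, 155 and 158 bp from a ZT10 peak, centre to centre. Just outside it, the 5 most displaced overlapping peaks lay 146, 145, 145, 140 and 137 bp away. For the overlapping peaks as a set the displacement was small, with a median of 33.0 bp and quartiles of 15 and 60.8 bp.

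What the lists leave out bears on each absence. Each peak carries a number within its chromosome, whose meaning no label states, and numbers and scores ran in opposite order (Spearman's rho across peaks between -0.99 and -0.95 over the 20 chromosomes at ZT22, and between -0.99 and -0.97 at ZT10, within single libraries). The highest numbers sum to 9241 over the chromosomes at ZT22 and to 17516 at ZT10, so 84.2% and 76.6% of the numbers up to them were not in the lists. Among numbers 1 to 10 of each chromosome, 200 in all, 41 were listed at ZT22 and 89 at ZT10. If the numbers rank the peaks as first called, which was not tested, highly ranked peaks were left out at both times. The names of the lists state a filter by the knockout and a minimum of 1 RPM (depth-scaled reads), and the series has a knockout HDAC3 library at ZT10 only. Whether a ZT22-only region was low at ZT10 or had a ZT10 peak that was removed from the list cannot be told apart.

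ZT22-only peaks tended to score lower than the overlapping peaks of their list. Their scores ran from 14.3, the lowest in the list, to 74.8, with a median of 17.4 and quartiles of 15.4 and 19.5. The overlapping ZT22 peaks ran from 14.3 to 117.9, with a median of 19.5 and quartiles of 16.4 and 24.6. The 2 sets overlap over most of their range, with more members at the bottom and more overlapping peaks at the top. Scores over 30 were held by 19 members and by 92 overlapping peaks. Lower scores were not particular to ZT22. Within the ZT10 list, ZT10-only peaks had a median of 17.6 and an upper quartile of 24.2, beside 18.7 and 25.3 for all ZT10 peaks. ZT10-only peaks make up 82.7% of that list, so the size of this contrast cannot be set against that at ZT22.

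Scores moved in whole steps. The step was 1.025 at ZT22, which 100% of scores fitted within 0.05 score units, and 1.0995 at ZT10, which 99.7% fitted as closely. The minimum of 14.3, shared by the lists, is thus 14 steps at ZT22 and 13 steps at ZT10. Of the members 158 stood on the lowest step, 79 on the next and 132 on the one after, so that 369 (49.3%) lay at 14 to 16 steps. Among overlapping peaks 212 (29.9%) did. If 1 step stood for 1 read, which the sources used here do not state, a value of 14 steps would carry an exact Poisson 95% interval of 7.65 to 23.5, from counting error alone.

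The share of ZT22 peaks that were ZT22-only was lower at higher scores, though nearly level between 15 and 20. It was 71.8% of the 220 peaks on the lowest step (Wilson 95% interval 65.5% to 77.3%). Over 15 and up to 17 it was 58.4% of 361 peaks, and over 17 and up to 20 it was 57.7% of 359. Over 20 and up to 25 it was 38.8% of 281 peaks, over 30 and up to 40 it was 22.2% of 72, and over 40 it was 7.69% of 39 (2.65% to 20.3%). These intervals cover counting error only and treat peaks as independent draws, which was not tested and may not hold for neighbouring peaks. Overlapping peaks on the lowest ZT22 step had ZT10 scores from 14.3 to 52.8, with a median of 18.7. A ZT22 peak at the minimum could thus have a ZT10 partner well inside its own list.

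**Figure D1:**
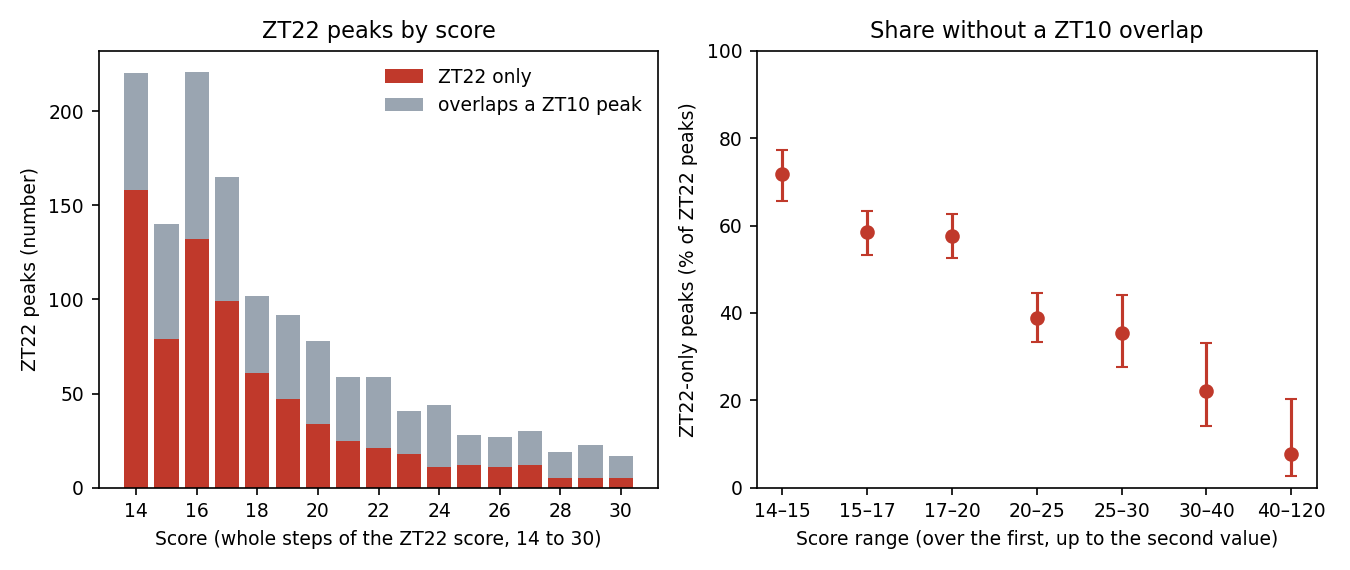
Left, number of ZT22 peaks at each score step from 14 to 30, stacked as ZT22-only (red) and overlapping a ZT10 peak (grey). Right, ZT22-only peaks as a percentage of ZT22 peaks in 7 score ranges, with Wilson 95% intervals; the share is 71.8% in the lowest range and 7.69% in the highest.

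A few members were among the strongest peaks of the night list, and these are given singly. Positions are those of mouse build mm9, counted from 1; the genes at them were not analysed here. The member with the highest score, chr14:32369164-32369313, had a score of 74.8, which ranked 2 of all ZT22 peaks. The nearest ZT10 peak lay 18.6 kb away with a score of 16.5 in its own list. The next member, chr17:4174155-4174304, scored 65.6 (rank 4), and no ZT10 peak lay within 335 kb of it. After it came chr13:97363663-97363812 with a score of 46.1, the peak numbered 1 on its chromosome, 605 kb from any ZT10 peak. These were the 3 members over a score of 40.

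The other strong members differed in their surroundings. At chr15:73578542-73578691 the score was 40 and a ZT10 peak lay 1.18 kb away. At chr10:80392775-80392924 the score was 38.9 with a ZT10 peak 10.7 kb away, and at chr13:103181867-103182016 it was also 38.9 with a ZT10 peak 14.4 kb away. That last ZT10 peak, with a score of 51.7, itself overlapped a ZT22 peak, which was not so for the ZT10 neighbours of the other 9. Scores of 36.9 were held by chr3:96377863-96378012, only 343 bp from a ZT10 peak of score 41.8, and by chr11:117171335-117171484, 2.58 kb from one. At 35.9 stood chr2:180120238-180120387, 8.65 kb from a ZT10 peak, and chr6:136417152-136417301, 193 kb from one. A high score thus came with distances from 343 bp to 605 kb among these 10 regions.

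At the other end, the 158 members on the lowest step cannot be ranked among themselves. The first of them by position, chr1:9738755-9738904, chr1:52805216-52805365 and chr1:78816898-78817047, lay 1503 kb, 515 kb and 1030 kb from a ZT10 peak. Over all 749 members score and distance showed next to no relation (Spearman's rho -0.03 across peaks of 1 library). The 19 members over a score of 30 lay on 11 chromosomes at 164 bp or more, with a median of 14.4 kb. Of these, 2 were within 1 kb of a ZT10 peak and 6 were more than 100 kb from one.

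**Figure D2:**
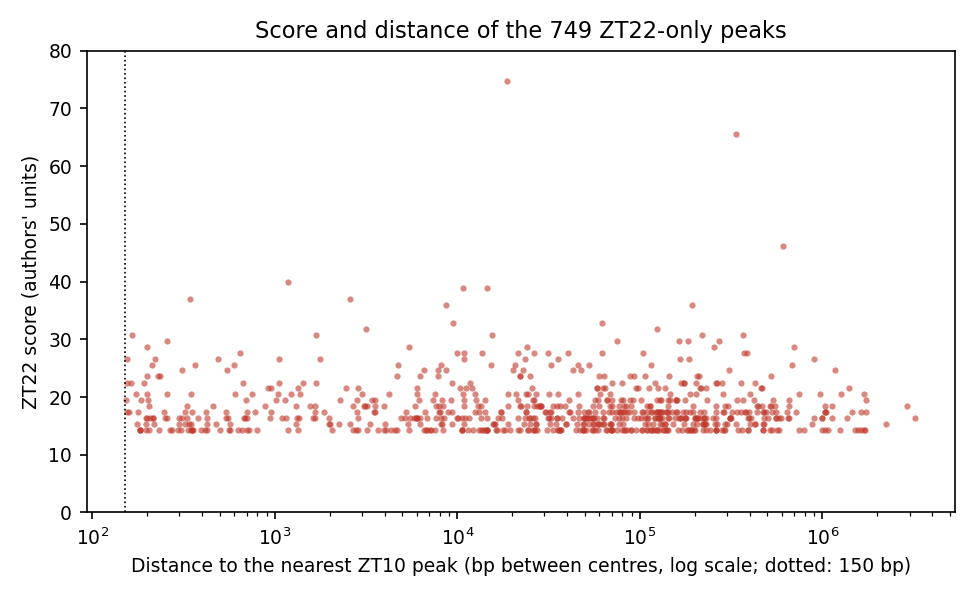
Each of the 749 ZT22-only peaks by its distance to the nearest ZT10 peak (bp between centres, log scale) and its ZT22 score in the authors' units; the dotted line is the peak width of 150 bp. Members over a score of 30 lie between 164 bp and 605 kb from a ZT10 peak, and the members beyond 1 Mb reach a score of 24.6.

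Members lay about as far from the ZT10 list as ZT10 peaks lay from one another. The distance to the nearest ZT10 peak had a median of 49.1 kb, quartiles of 6.59 and 165 kb, and a maximum of 3.23 Mb. Within 10 kb of a ZT10 peak were 222 members (29.6%), and within 100 kb 478 (63.8%). Beyond 100 kb were 271 (36.2%), and beyond 1 Mb 27 (3.60%). For scale, a ZT10 peak lay a median of 46.1 kb from the next ZT10 peak, and 65.3% of ZT10 peaks had another within 100 kb. Beyond about 50 kb the curves of the 2 sets nearly coincide.

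Close to a ZT10 peak they part. Within 1 kb of a ZT10 peak were 101 members (13.5%), against 6.25% of ZT10 peaks with another ZT10 peak as close. Much of this gap lies under 300 bp, where 44 members were found and only 2 ZT10 peaks. Within a list the closest peaks lay 287 bp apart at ZT10 and 374 bp apart at ZT22. The rule lets a member lie as close as 150 bp to a ZT10 peak. Whether this difference in spacing accounts for the gap was not tested. Over 300 and up to 1000 bp the shares were 7.61% of members (57) and 6.21% of ZT10 peaks (254).

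Some members lay right beside a ZT10 peak. None of the 44 within 300 bp had a ZT10 neighbour that overlapped another ZT22 peak, which the spacing within the ZT22 list nearly forces. Of the 57 over 300 and up to 1000 bp, the ZT10 neighbour overlapped a ZT22 peak for 8 (14%), close to the 17.3% of the whole ZT10 list. The ZT10 neighbours of all 101 within 1 kb had a median score of 19.8, beside 18.7 for all ZT10 peaks, and reached 93.5. Of the 44, 23 lay at the higher coordinate and 21 at the lower. The nearest, chr17:56432379-56432528, had a score of 19.5 and lay 153 bp from a ZT10 peak of score 19.8. At chr2:60560849-60560998 a member of score 26.6 lay 155 bp from a ZT10 peak of score 44.0, and at chr2:33011909-33012058 one of 17.4 lay 155 bp from a ZT10 peak of 16.5. Counting a ZT10 peak within 1000 bp, edge to edge, as the same site leaves 642 ZT22-only peaks.

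**Figure D3:**
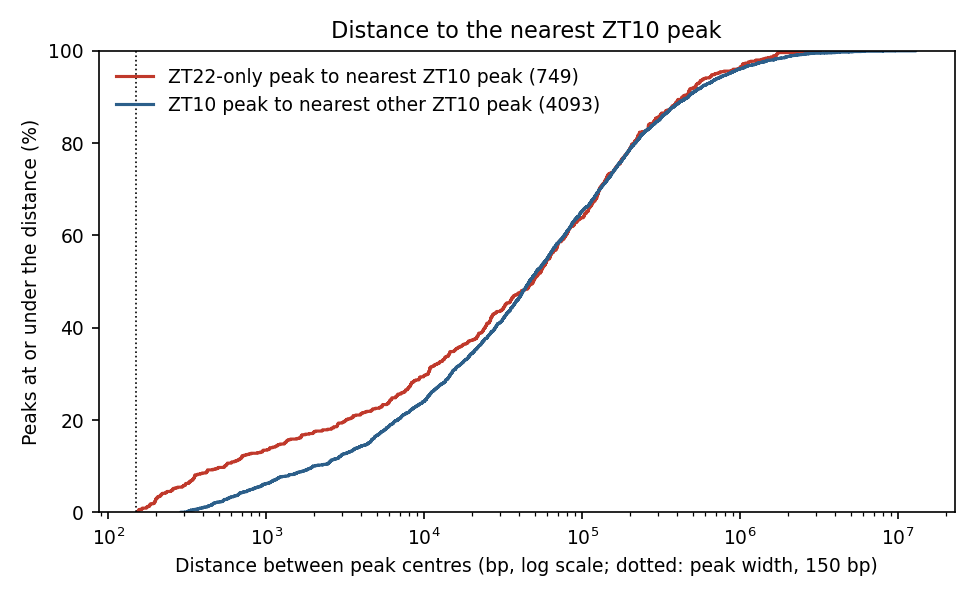
Cumulative percentage of the 749 ZT22-only peaks by distance to the nearest ZT10 peak (red) and of the 4093 ZT10 peaks by distance to the nearest other ZT10 peak (blue), in bp between centres on a log scale. At 1 kb the curves stand at 13.5% and 6.25%, and at 100 kb at 63.8% and 65.3%.

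The remote members had ordinary scores. The 27 members beyond 1 Mb had a median score of 17.4 and at most 24.6, and 8 of them stood on the lowest step. Farthest was chr15:41701243-41701392, with a score of 16.4 and 3.23 Mb to the nearest ZT10 peak. It was followed by chr13:9181261-9181410 (score 18.4) at 2.90 Mb and chr12:29385482-29385631 (score 15.4) at 2.24 Mb. The chromosome 13 region also had no other member within 21.7 Mb. In 18 of the 27, no other member lay within 1 Mb.

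ZT22-only peaks were scattered singly and seldom formed groups. A member lay a median of 453 kb from the next member, with quartiles of 115 kb and 1465 kb. For the 710 overlapping peaks, a set of like size, the median was 471 kb with quartiles of 62.2 and 1497 kb. The medians are close. Joined at gaps of at most 1 kb, 12 members (1.60%) and 10 overlapping peaks (1.41%) fell into pairs, a like share. Joined at gaps of at most 10 kb, 42 members (5.61%) fell into 20 groups, 18 pairs and 2 groups of 3, and 707 stood alone. Of overlapping peaks 74 (10.4%) fell into 35 groups of up to 4. With scores of at least 20, 2 of 173 members and 21 of 346 overlapping peaks did, sets too unequal in size to compare, since a larger set lies closer together. The same holds for the 3383 ZT10-only peaks, of which 18.7% fell into groups. None of these differences was tested, since regions are not replicates.

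The closest pairs show different settings. On chromosome 6, chr6:129186348-129186497 and chr6:129186812-129186961 lay 464 bp apart with scores of 22.5 and 20.5, and a ZT10 peak lay 1.22 kb beyond the second. On chromosome 2, chr2:90910481-90910630 with a score of 31.8 and chr2:90911070-90911219 with 14.3 lay 589 bp apart, and no ZT10 peak lay within 123 kb of either. On chromosome 11, chr11:51501936-51502085 (score 14.3) and chr11:51502574-51502723 (score 16.4) lay 638 bp apart on both sides of a ZT10 peak, 423 and 215 bp from it. This was the only ZT10 peak with a member within 1 kb on each side.

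Both groups of 3 were on chromosome 11. The first held chr11:72335490-72335639, chr11:72343233-72343382 and chr11:72351114-72351263, with scores of 20.5, 19.5 and 14.3, and a ZT10 peak of score 14.3 lay between the first and the second. The second held chr11:120812136-120812285, chr11:120813525-120813674 and chr11:120821655-120821804, with scores of 30.7, 19.5 and 16.4, and the nearest ZT10 peak lay 6.04 kb or more away. The scores within a group spanned 6 steps in the first and 14 in the second.

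**Figure D4:**
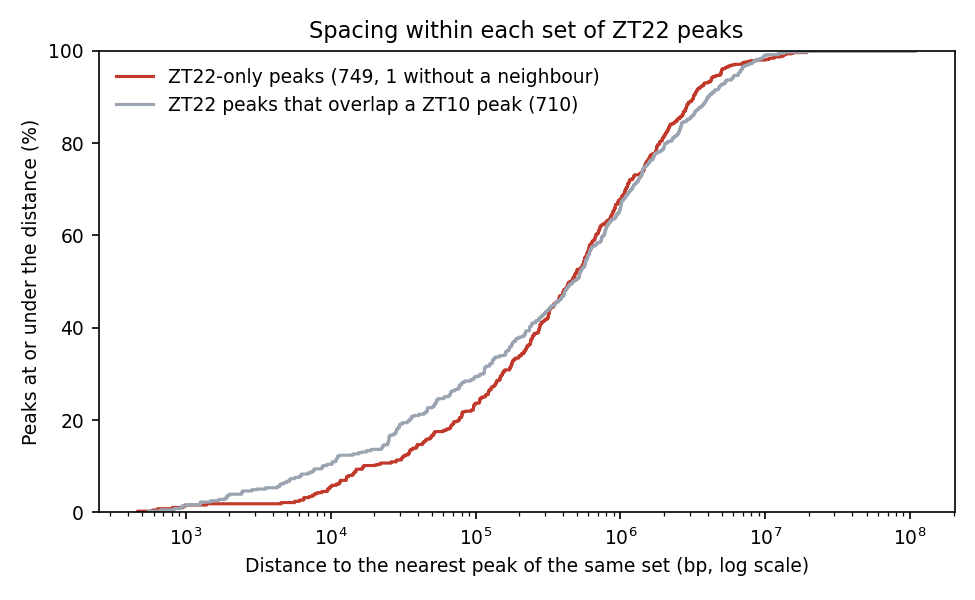
Cumulative percentage of ZT22-only peaks (red) and of ZT22 peaks that overlap a ZT10 peak (grey) by the distance to the nearest peak of the same set, in bp on a log scale. At 10 kb the curves stand at 5.61% and 10.4%; the medians are 453 and 471 kb. The single member on chromosome X has no neighbour.

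Members and overlapping peaks were interleaved along the chromosomes. The nearest ZT22 peak of a member was another member for 404 of 749 (53.9%), and that of an overlapping peak was a member for 344 of 710 (48.5%), where members make up 51.3% of the list. Within 10 kb of an overlapping ZT22 peak lay 40 members (5.34%). Neither a ZT10 peak nor any other ZT22 peak lay within 10 kb of 510 members (68.1%). Overlapping peaks have no such share, since each has a ZT10 peak by definition. For scale, 29.6% of members had a ZT10 peak within 10 kb, and 24.1% of ZT10 peaks had another ZT10 peak as close. In bins of 1 Mb, the 749 members occupied 524 bins: 357 held 1 member, 123 held 2, 33 held 3, 8 held 4 and 3 held 5. No ZT10 peak fell in 65 of these bins (12.4%), which held 79 members.

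The 3 fullest bins differed in what else they held. On chromosome 10, between 80 and 81 Mb, 5 members with scores from 14.3 to 38.9 lay among 21 ZT10 peaks and 1 overlapping ZT22 peak. On chromosome 1, between 74 and 75 Mb, 5 members (16.4 to 22.5) lay with 7 ZT10 peaks, and on chromosome 3, between 95 and 96 Mb, 5 members (14.3 to 21.5) lay with 10. Of the bins with 4 members, the one on chromosome 2 between 90 and 91 Mb held no overlapping ZT22 peak and 2 ZT10 peaks. The tightest of the bins with 4 or more was on chromosome 14, where 4 members with scores from 14.3 to 18.4 lay within 62.0 kb, between positions 21460182 and 21522337. These bins were picked for their counts, after the values were seen.

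All 20 chromosomes with listed peaks held members. Chromosome 11 had most, 63 (8.41%), followed by chromosome 2 with 58 and chromosome 1 with 56. The fewest on an autosome were 23, on chromosome 16, and chromosome X held 1, chrX:96247658-96247807, with a score of 16.4. The spread went with that of the other peaks. Over the 19 autosomes the number of members and of ZT10 peaks had Pearson's r of 0.87 and Spearman's rho of 0.88. For members and overlapping ZT22 peaks the values were lower, with r of 0.74 and rho of 0.75. These are a description, since larger chromosomes hold more of each set. An autosome held 20 to 58 overlapping peaks and 119 to 305 ZT10 peaks, and the difference between the correlations was not tested.

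As a share of the ZT22 peaks of a chromosome, members made up from 43.6% (34 of 78, on chromosome 8) to 60.8% (48 of 79, on chromosome 10). Chromosome 11 came next, with 60.6% of 104. The Wilson 95% interval of each of the 19 autosomes held the share over the whole list, 51.3%. These intervals cover counting error only and treat peaks of 1 library as independent draws. Whether the share differs between chromosomes was not tested. More members than overlapping peaks were found on 11 autosomes and fewer on 8. Chromosome X had 1 member among 6 ZT22 peaks (16.7%, interval 3.01% to 56.4%), too few for a comparison with the rest. It also held few peaks at ZT10, 38 of 4093 (0.928%).

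The median score of members was between 16.4 and 17.4 on every autosome, on a scale whose lowest 3 steps hold 49.3% of them. The median distance to the nearest ZT10 peak was shortest on chromosome 10, at 13.8 kb (quartiles 3.72 and 80.2 kb, 48 members), and longest on chromosome 13, at 182 kb (46.4 and 557 kb, 24 members). The ranges between quartiles overlapped even for this pair, which was picked for its medians. The longest stretch of an autosome without a member, between its first and last, was from 9.54 Mb on chromosome 17 to 30.3 Mb on chromosome 16.

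**Figure D5:**
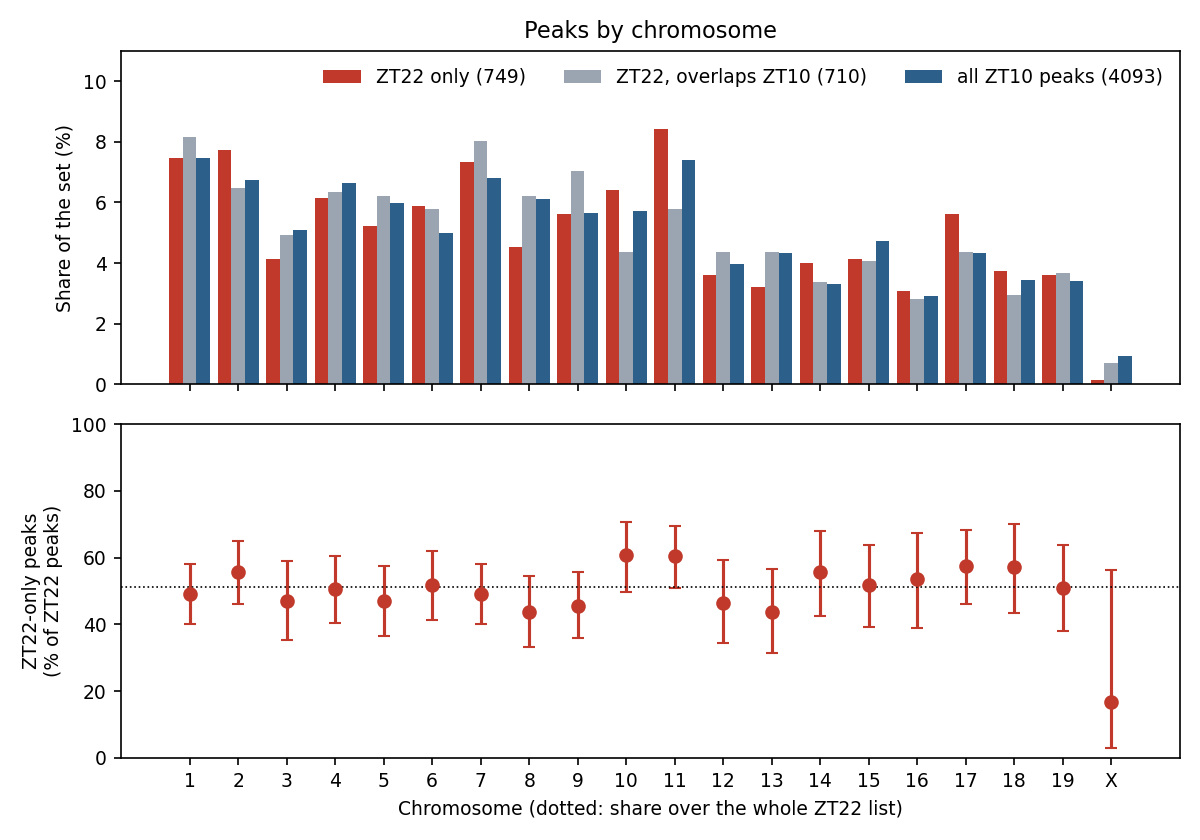
Top, share of each set of peaks on each chromosome (%): ZT22-only peaks (red), ZT22 peaks that overlap a ZT10 peak (grey) and all ZT10 peaks (blue). Bottom, ZT22-only peaks as a percentage of the ZT22 peaks of the chromosome with Wilson 95% intervals, which cover counting error only. The dotted line is 51.3%, which lies inside the interval of each autosome.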

How the data were processed

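HDAC3 peak lists of 1 wild-type library at ZT10 and 1 at ZT22 were used. The peaks were made with Bowtie and HOMER on mm9, per the submitters' processing notes (no version or parameter is named there). The authors' deposited score per peak has no stated scale, so scores were used within a list only. Read numbers are not given, so the depth of the libraries is unknown. The other 12 samples and the expression table, which has no positions, were not used here.

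Overlap was at least 1 bp, and distances are between centres on a chromosome. Groups joined neighbours at gaps of at most 10 kb. The score step was the value that made most scores whole multiples within 0.05. Overlap, distance, grouping and step were tested on simulated data with planted answers. Python 3.11.15, NumPy 2.4.6, pandas 2.3.3, SciPy 1.17.1 and matplotlib 3.10.9 were used.

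Singly named regions were the 10 with the highest score, the 3 with the lowest (by position), the 3 nearest to and the 3 farthest from a ZT10 peak, the 3 closest pairs and the largest groups at 10 kb, leaving out chromosome 18; other regions were chosen after their values were seen. The members and these lists were chosen with earlier results of these data known. Alternatives changed the overlap, the minimum score, the gap and the distance measure.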

Additional observations from a re-analysis of the deposited data

How the results depend on the processing

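With ZT22 peaks of a score of at least 20 alone, the number of ZT22-only peaks was 173 of 519 (33.3%), and with that minimum in both lists 207 (39.9%), beside 51.3% in the lists as deposited. It was between 642 and 949 under the other alternatives. With at least 75 bp of overlap it was 868. When a ZT10 peak within 150 or 1000 bp, edge to edge, counted as shared, it was 705 and 642. It was 949 with ZT10 peaks of at least 20, and 768 with at least 14 steps in both lists (chosen after seeing the data). The median score was 17.4 under the 3 other overlap rules and in whole steps. The median distance to a ZT10 peak was 158 kb against ZT10 peaks of a score of at least 20, which are 1728 of 4093, and 48.9 kb between edges. Members in groups numbered 12 joined at 1 kb, 125 at 50 kb, 2 with scores of at least 20, 78 when every ZT22 peak counted as a neighbour and 26 without members within 1000 bp of a ZT10 peak (chosen after seeing the data). The fullest chromosome held 8.09% to 8.57% of members, and it was chromosome 6 in place of 11 with scores of at least 20. No paired analysis was possible because each time has 1 library and no result comes from a test. Without read numbers, weak peaks cannot be told from counting error.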
